A study of Mus musculus with 6 samples.

Results

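The 8 genes that encode the subunits of the chaperonin CCT, also called TRiC, were followed in B16F10 mouse melanoma cells after knockdown of OSGEP. The members were the rows named Tcp1, Cct2, Cct3, Cct4, Cct5, Cct6a, Cct7 and Cct8, and all 8 were among the 12669 genes tested, out of 55487 listed. OSGEP is the enzyme of the KEOPS complex that makes the t6A modification at position 37 of the tRNAs that read codons starting with A. RNA sequencing was carried out on polyA RNA of control cells, which carried a scramble shRNA delivered by lentivirus (shCtr, n = 3), and of cells carrying the shRNA labelled OSGEP#2 (shOSGEP, n = 3). Both groups were puromycin-selected pools of infected cells of this 1 line, the 3 replicates of a group came from separate infections, and the knockdown rested on 1 hairpin.

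CCT is a barrel of stacked rings in which each ring holds 1 copy of every subunit, and it folds newly made actin, tubulin and proteins with WD40 propellers inside a closed, ATP-driven chamber. All subunits share an ATP-binding equatorial domain, and their apical domains differ in the clients that they bind. Because each ring needs every subunit, the proportions in which the subunit mRNAs occur are of interest beside their levels. The comparison asks whether the level of any subunit mRNA, or the balance among them, differed between shOSGEP and shCtr cells.

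Library depth ranged from 18915587 to 29487384 counts. Osgep, the targeted gene, measured 20.6, 58.6 and 21.8 CPM, which are counts divided by the TMM-scaled library size, in shCtr replicates 1, 2 and 3 and 4.28, 0.542 and 5.52 CPM in shOSGEP replicates 1, 2 and 3. Its Log2FC was -3.29 (SE 0.876), with no overlap between the groups, although edgeR's quasi-likelihood test gave an adjusted p of 1.00 and an unadjusted p of 0.00524. All 7 melanocyte lineage markers were detected in every library, and their summed level ranged from 17038 to 29599 CPM in shCtr and from 3551 to 18083 CPM in shOSGEP, with the lowest sum in shOSGEP replicate 2. Ptprc, Cd3e, Cdh5, Dcn and Epcam, which define leukocytes, T cells, endothelium, fibroblasts and epithelium, were at 0 in every library. Of other markers, Cd68 of macrophages was at 0.504 to 7.47 CPM and Pdgfra of fibroblasts at 0.639 to 4.07 CPM in all 6 libraries, and Pecam1, Krt5 and Krt14 were at most 0.310 CPM. Libraries with replicate number 2 stood apart. Within the shCtr group the correlation of log2 CPM across genes was 0.962 between replicates 1 and 3 and 0.769 between replicates 1 and 2, and within shOSGEP it was 0.948 between replicates 1 and 3 and 0.872 between replicates 1 and 2. Scaling by TMM gave shCtr replicate 2 a factor of 0.690, where the other libraries had 1.04 to 1.14.

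No CCT subunit passed the test between shOSGEP and shCtr. The members' adjusted p was 1.00 for each of the 8, their smallest unadjusted p was 0.163, and 0 of the 8 passed a Log2FC beyond 0.5 with an unadjusted p under 0.05. At an adjusted p under 0.05, edgeR called 0% of all genes tested, and at an unadjusted p under 0.05 it called 2.02%, so the members' 0 calls were also what the background gave. The fitted Log2FC was below 0 for 6 members and above 0 for 2, where 52.7% of all genes tested were below 0 and 47.3% above. The median Log2FC of the members was -0.26, against -0.03 over all genes tested, and the members' median was -0.04 without shCtr replicate 2, -0.15 without both libraries of replicate 2, with 7 of 8 members below 0, and -0.26 with a replicate block. A lower CPM may come from fewer of the cells that make the mRNA or from less of it in each cell, which bulk RNA cannot tell apart.

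**Figure D1:**
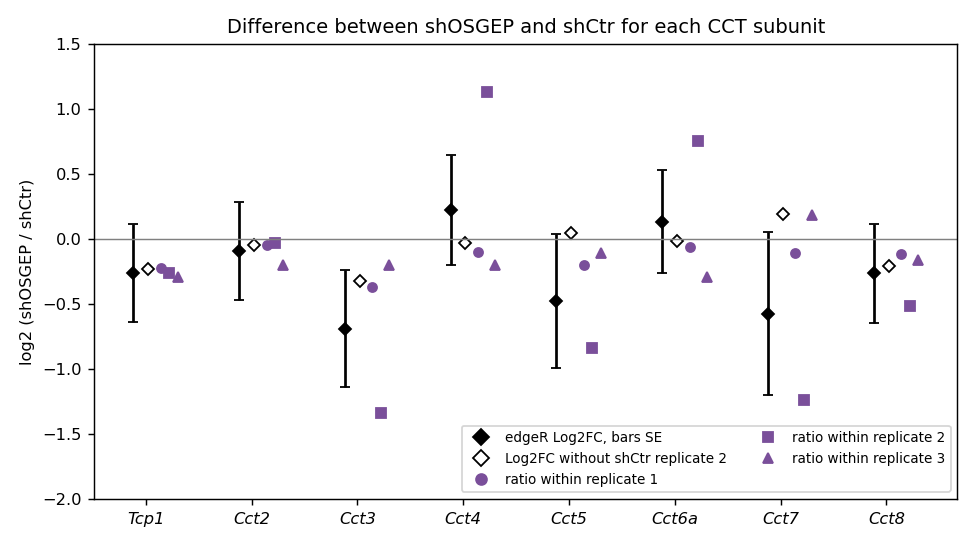
Log2 ratio of shOSGEP to shCtr (vertical axis) for the 8 CCT subunits (horizontal axis), with filled diamonds for the edgeR Log2FC, bars for its SE, open diamonds for the Log2FC without shCtr replicate 2, and purple circles, squares and triangles for the ratio within replicates 1, 2 and 3. The estimates lie between -0.69 and 0.22, and the ratios of replicate 2 spread from -1.34 to 1.13, far wider than those of replicates 1 and 3.

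Among the subunits on the side of the ring that binds ATP less tightly, Tcp1 gave the clearest separation of the groups. Tcp1 (chromosome 17, 12915701 to 12925067, plus strand, GRCm38) encodes the alpha subunit, from which the family takes its name. It measured 505, 580 and 580 CPM in shCtr replicates 1 to 3 and 432, 484 and 473 CPM in shOSGEP replicates 1 to 3. The groups did not overlap, with the 3 shOSGEP values under the 3 shCtr values. The group means were 555 ± 43.3 and 463 ± 27.1 CPM (SD, n = 3 each), the Log2FC was -0.26 (SE 0.377, unadjusted p = 0.506 in edgeR), and the exact permutation test gave a two-sided p of 0.1, the smallest that 3 libraries against 3 allow. Its log2 ratio was also even across replicates, at -0.22, -0.26 and -0.30. Tcp1 was the 1 member whose groups did not overlap, where 6.36% of all genes tested did not overlap in either direction 2.87% were lower without overlap and 3.49%, with 0 members, were higher without overlap.

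Cct8 encodes the theta subunit (chromosome 16, 87483326 to 87495873, minus strand) and had nearly the same Log2FC as Tcp1. Its levels were 483, 590 and 567 CPM in the shCtr libraries and 447, 413 and 505 CPM in the shOSGEP libraries. The groups overlapped only through the lowest shCtr and the highest shOSGEP library, and the Log2FC was -0.26 (SE 0.382, unadjusted p = 0.507 in edgeR), with an exact permutation p of 0.2.

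Cct3, which encodes the gamma subunit (chromosome 3, 88297116 to 88321767, plus strand), had the most negative estimate of the 8. Its levels were 357, 775 and 472 CPM in shCtr and 276, 307 and 411 CPM in shOSGEP. The highest shCtr value came from replicate 2, at 1.87 times the mean of the other shCtr libraries, and the groups overlapped. The Log2FC was -0.69 (SE 0.452, unadjusted p = 0.163 in edgeR, exact permutation p = 0.2), and it was -0.32 without shCtr replicate 2. The log2 ratio was below 0 in each replicate, at -0.37, -1.34 and -0.20. With limma-voom sample weights and a replicate block, Cct3 was the 1 member with an unadjusted p under 0.05, at 0.022 with an adjusted p of 0.129, under a test that called 23% of all genes at that unadjusted threshold and 11.1% at an adjusted p under 0.05.

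Cct6a, which encodes the widely expressed form of the zeta subunit (chromosome 5, 129786998 to 129846371, plus strand), had an estimate above 0. It measured 384, 276 and 387 CPM in shCtr and 368, 466 and 316 CPM in shOSGEP, a Log2FC of 0.13 (SE 0.396, unadjusted p = 0.743 in edgeR). The lowest of the 6 libraries was shCtr replicate 2 and the highest was shOSGEP replicate 2. In replicates 1 and 3 the log2 ratios were -0.06 and -0.29, against 0.76 in replicate 2, and the Log2FC without shCtr replicate 2 was -0.01.

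On the side of the ring that binds ATP more tightly, Cct2 was the steadiest subunit. Cct2 encodes the beta subunit (chromosome 10, 117051001 to 117063814, minus strand) and measured 402, 493 and 489 CPM in shCtr and 390, 482 and 426 CPM in shOSGEP. The groups overlapped throughout, with means of 461 ± 51.5 and 433 ± 46.2 CPM, and the Log2FC was -0.09 (SE 0.379, unadjusted p = 0.813 in edgeR).

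Cct4, which encodes the delta subunit (chromosome 11, 22990519 to 23003780, plus strand), had the highest estimate, at 0.22 (SE 0.422, unadjusted p = 0.608 in edgeR). Its levels were 238, 117 and 212 CPM in shCtr and 223, 256 and 184 CPM in shOSGEP. The low value of shCtr replicate 2, at 0.520 times the mean of the other shCtr libraries, set the direction: the log2 ratios of replicates 1 and 3 were -0.10 and -0.20, that of replicate 2 was 1.13, and the Log2FC without shCtr replicate 2 was -0.03.

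Cct5 and Cct7, the epsilon and eta subunits, deviated the other way in the same library. Cct5 (chromosome 15, 31590800 to 31601804, minus strand) measured 746, 1851 and 852 CPM in shCtr and 648, 1036 and 791 CPM in shOSGEP. Cct7 (chromosome 6, 85451514 to 85468475, plus strand) measured 959, 3863 and 1524 CPM in shCtr and 891, 1636 and 1734 CPM in shOSGEP. The level in shCtr replicate 2 was 2.32 times the mean of the other shCtr libraries for Cct5 and 3.11 times for Cct7. The Log2FC was -0.48 (SE 0.513, unadjusted p = 0.377 in edgeR) for Cct5 and -0.57 (SE 0.628, unadjusted p = 0.386 in edgeR) for Cct7. Without shCtr replicate 2 these became 0.05 and 0.20, and without both libraries of replicate 2 they were -0.15 and 0.09. The log2 ratio of Cct5 was below 0 in each replicate, at -0.20, -0.84 and -0.11.

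**Figure D2:**
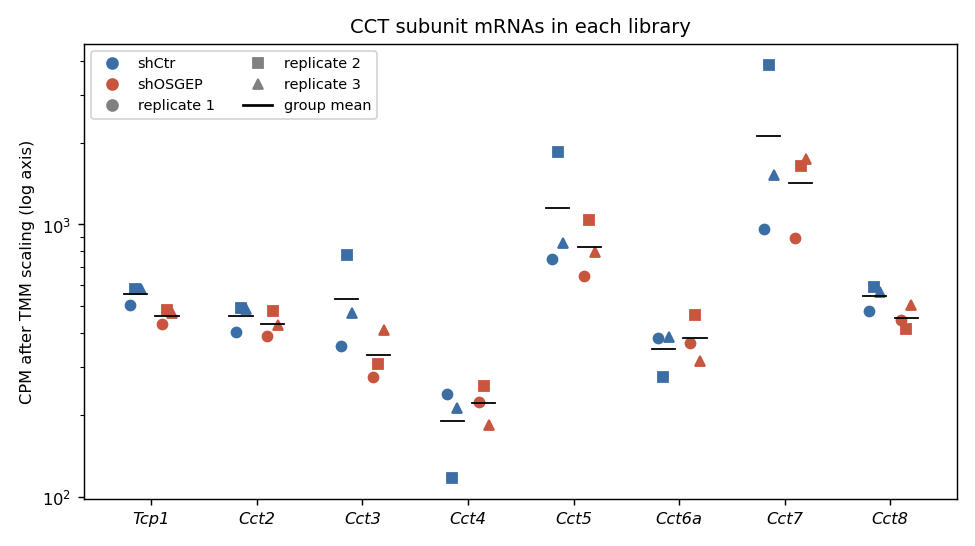
CPM after TMM scaling (vertical axis, log scale) of each CCT subunit in the 3 shCtr and the 3 shOSGEP libraries, with blue symbols for shCtr, red symbols for shOSGEP, a circle, square or triangle for replicate 1, 2 or 3, and a line at each group mean. Cct7 in shCtr replicate 2 reaches 3863 CPM, where replicates 1 and 3 have 959 and 1524 CPM, while Tcp1 shows shCtr at 505 to 580 CPM above shOSGEP at 432 to 484 CPM.

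Compared within replicate number, most subunits had lower values in shOSGEP. In replicate 1 all 8 members were lower in shOSGEP, in replicate 2 this held for 6 and in replicate 3 for 7. The median log2 ratios of the members were -0.11, -0.39 and -0.20, against -0.03, 0.11 and -0.01 over all genes tested. Tcp1, Cct2, Cct3, Cct5 and Cct8 were lower in all 3 replicates, which is 5 of 8 members against 17.2% of all genes tested, and 0 members were higher in all 3, against 17.6%. Subunits of 1 complex are not independent of each other within a library, and no test was made on this count. Summed over the family, the level was 4074, 8544 and 5082 CPM in shCtr and 3675, 5078 and 4840 CPM in shOSGEP, with means of 5900 ± 2345 and 4531 ± 751 CPM (SD, n = 3 each) and an exact permutation p of 0.4. The groups overlapped, and Cct7 alone made up 45.2% of the sum in shCtr replicate 2 against 23.5% and 30.0% in the other shCtr libraries.

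In the median, the members varied less between libraries of a group than all genes tested did, with Cct7 as the exception in shCtr at an SD of 1.02. The median SD of log2 CPM within a group was 0.415 in shCtr and 0.260 in shOSGEP for the members, against 0.763 and 0.534 over all genes tested. For the 845 genes with a mean count at least that of the lowest member, the medians were 0.742 and 0.532. The lower median spread was thus also seen beside genes of like abundance, which were not matched on GC content. GC of the members ran from 43.3% to 54.0%, and its part in the spread was not tested. The median absolute Log2FC of the members was 0.26, against 0.43 for those 845 genes. Of all genes tested, 80.4% had an absolute Log2FC no larger than that of Cct3.

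To follow the balance among subunits, the log2 CPM of each member was set against the mean of the other 7 in the same library, a measure in which library scaling cancels. In the comparison of groups, a shift beyond the spread of the libraries was not detected for any subunit. The groups overlapped for all 8, the smallest exact permutation p was 0.2, and the smallest after Benjamini-Hochberg adjustment over the 8 was 0.8. With 3 libraries against 3, a two-sided p cannot fall below 0.1, so this unpaired test could not reach 0.05 for any shift. The difference of shOSGEP from shCtr was 0.55 for Cct4, 0.38 for Cct6a, 0.13 for Cct2, -0.07 for Tcp1, -0.07 for Cct8, -0.21 for Cct5, -0.21 for Cct7 and -0.50 for Cct3. Within replicate numbers Cct3 was lower relative to the other 7 in all 3 pairs, with differences of -0.25, -1.19 and -0.05, and for the other members the sign differed between pairs. In replicates 1 and 3 the proportions were close, with the largest shift at 0.25 and 0.40 and a median absolute shift of 0.07 and 0.05. In replicate 2 the shifts ran from -1.19 to 1.62, with a median absolute shift of 0.85.

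**Figure D3:**
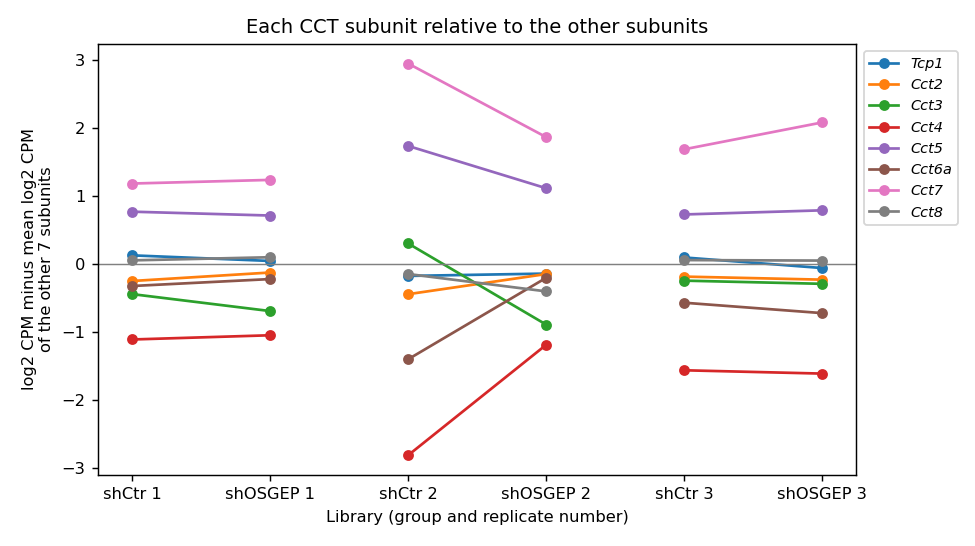
Log2 CPM of each CCT subunit minus the mean log2 CPM of the other 7 (vertical axis) in each of the 6 libraries (horizontal axis), with 1 colour per subunit and a line joining the shCtr and shOSGEP libraries of the same number. The lines of replicates 1 and 3 are nearly flat, with shifts of at most 0.25 and 0.40, while replicate 2 differs by up to 1.62.

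Divided by transcript length, the subunit mRNAs were far from equal. The mean over the 6 libraries was 887 ± 545 CPM per kilobase for Cct7, 533 ± 239 for Cct5, 361 ± 42.5 for Tcp1, 344 ± 35.8 for Cct2, 259 ± 35.4 for Cct8, 227 ± 95.2 for Cct3, 149 ± 26.6 for Cct6a and 99.5 ± 24.0 for Cct4 (SD, n = 6 libraries of both groups). Cct7 was the first and Cct4 the last of the 8 in every library. Their ratio per kilobase was 4.16, 34.1 and 7.43 in shCtr and 4.14, 6.60 and 9.73 in shOSGEP. The levels were not corrected for GC content, which was 54.0% for Cct7 and 45.1% for Cct4. Of the neighbours in this order, Tcp1 exceeded Cct2 in 5 of 6 libraries, Cct8 exceeded Cct3 in 5 and Cct3 exceeded Cct6a in 4, so these pairs were not separated in every library, whereas the other neighbouring pairs kept their order in all 6. The length used was the mean over the annotated transcripts in the basic set of GENCODE, 1410 bases for Tcp1 and 1298 bases for Cct2. Both lengths are shorter than the coding sequences of these genes, 556 and 535 codons, so their levels per kilobase may be overstated. With the longest transcript instead, Cct5 ranked first, Cct7 second and Tcp1 sixth, while Cct4 stayed last. The members ranked between 45 and 876 among all tested genes by mean CPM.

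The way in which the subunits divided in shCtr replicate 2 ran alongside the GC content of their transcripts. GC was 54.0% for Cct7, 50.2% for Cct5 and 49.3% for Cct3, the 3 subunits that were high in this library, with log2 deviations from the other shCtr libraries of 1.68, 1.22 and 0.92. It was 47.4% for Cct6a and 45.1% for Cct4, which deviated by -0.48 and -0.94. Tcp1 and Cct2, at 47.4% and 47.2%, deviated by 0.10 and 0.15, and Cct8, with the lowest GC of 43.3%, by 0.17, so the order was not strict and Spearman's rho over the 8 members was 0.667. The members share the library, and rho is a description. Over all 12658 genes tested with a known GC content rho was 0.732, and the median deviation in this library went from -3.38 for the 655 genes under 40% GC to 1.46 for the 586 genes at 60% or more. In shOSGEP replicate 2 these medians were -1.27 and 0.253, the same direction over a smaller range. Spearman's rho over the 8 members was 0.571 there. With offsets for GC content and length, the Log2FC of Cct4 was -0.07 and that of Cct6a -0.03, and 0 of the 8 members had a Log2FC above 0. The same offsets took Cct8 from -0.26 to -0.92, past Cct3 at -0.75, and Tcp1 from -0.26 to -0.47, and the median of the 8 members was -0.38.

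**Figure D4:**
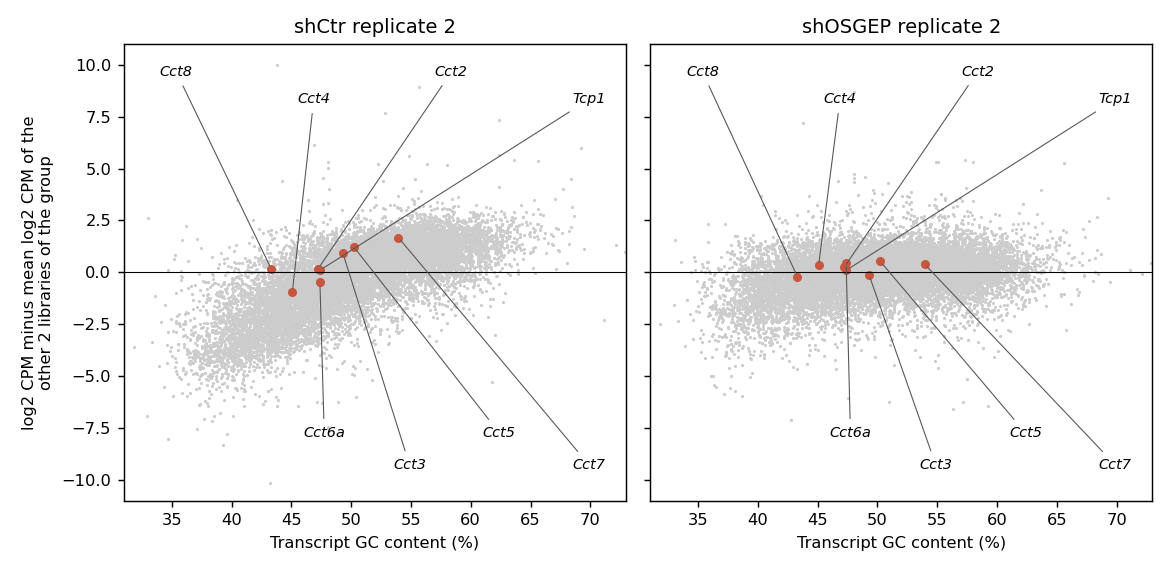
Deviation of log2 CPM in shCtr replicate 2 (left) and shOSGEP replicate 2 (right) from the mean of the other 2 libraries of the group (vertical axis), against transcript GC content in percent (horizontal axis), with every tested gene in grey and the CCT subunits in red. In shCtr replicate 2 the members reach from -0.94 for Cct4 to 1.68 for Cct7, and not all follow the slope of all genes. Cct8, at 43.3% GC, lies at 0.17, where the median of genes from 40 to 45% GC is -2.16.

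Since OSGEP acts on tRNAs that read codons starting with A (ANN codons), the share of such codons was read from the coding sequences. It was 34.1% for Cct3 (186 of 545 codons), 33.8% for Cct4, 31.8% for Cct5, 31.5% for Tcp1, 31.02% for Cct6a, 30.3% for Cct7, 29.7% for Cct8 and 29.5% for Cct2 (158 of 535 codons). Over 11577 tested coding genes the median was 26.9% with quartiles of 23.5% and 29.8%, so all 8 members were above the median and 6 above the upper quartile. Cct6a is annotated without a coding sequence in the release used, and its longest open reading frame was taken. The richest and the poorest member in ANN codons differed in mRNA response by their estimates only, -0.69 for Cct3 and -0.09 for Cct2, and Cct4, nearly as rich as Cct3, had 0.22. RNA levels do not measure translation of these codons. The stretch of 20 codons with the most ANN codons is shown for Cct3, whose stretch held the most of the 8 members, and for Cct4, whose stretch held the fewest although its overall share was next to that of Cct3. ANN codons are in capitals and the others in lower case, from the GENCODE transcripts of GRCm38.
Cct3 codons 147 to 166, 15 ANN: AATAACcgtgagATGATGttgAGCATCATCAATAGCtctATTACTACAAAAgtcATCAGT
Cct4 codons 42 to 61, 10 ANN: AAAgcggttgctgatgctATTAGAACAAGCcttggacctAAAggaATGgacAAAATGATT

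Tcp1, Cct6a and Cct7 each start head to head with a gene on the opposite strand, and the start regions of these 3 are shown because the members and their neighbours could be compared there. The windows run from 250 bases before to 50 after the RefSeq start on GRCm38.p6. Capitals mark CCAAT or its reverse complement ATTGG, the letters of a box bound by NF-Y, and in Cct6a also a match to TTCNNGAA, an arrangement of the repeats of a heat shock element. No capitals overlap.
Tcp1, chr17:12916079-12916378, plus strand: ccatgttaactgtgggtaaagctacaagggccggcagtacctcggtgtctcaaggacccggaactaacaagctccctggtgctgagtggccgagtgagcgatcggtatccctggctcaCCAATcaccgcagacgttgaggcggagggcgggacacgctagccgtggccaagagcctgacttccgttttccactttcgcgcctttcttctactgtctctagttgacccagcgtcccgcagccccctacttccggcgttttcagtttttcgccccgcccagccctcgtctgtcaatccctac
Cct6a, chr5:129787106-129787405, plus strand: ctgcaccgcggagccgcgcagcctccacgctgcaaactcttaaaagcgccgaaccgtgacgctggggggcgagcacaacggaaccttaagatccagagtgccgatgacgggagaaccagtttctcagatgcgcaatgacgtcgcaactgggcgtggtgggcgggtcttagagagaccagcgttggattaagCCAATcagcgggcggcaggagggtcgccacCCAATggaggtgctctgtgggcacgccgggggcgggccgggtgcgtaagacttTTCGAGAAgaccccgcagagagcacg
Cct7, chr6:85451255-85451554, plus strand: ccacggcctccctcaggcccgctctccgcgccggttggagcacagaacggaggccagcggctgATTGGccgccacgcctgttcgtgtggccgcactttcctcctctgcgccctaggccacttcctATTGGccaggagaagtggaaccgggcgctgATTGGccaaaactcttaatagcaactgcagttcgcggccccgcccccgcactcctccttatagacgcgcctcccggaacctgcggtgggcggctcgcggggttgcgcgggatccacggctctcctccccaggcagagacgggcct

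Of the members, 7 matched a RefSeq start, with 9 windows in all. CCAAT or ATTGG, searched on both strands, was in 4 of the 9 windows, where 37.4% of 32851 promoters held it. These windows belonged to 4 members, with 3 matches in Cct7, 2 in Cct6a, 2 in Cct3 and 1 in Tcp1. TTCNNGAA was in windows of Cct5 and Cct6a (8.52% of all promoters) and GAANNTTC in 1 window of Cct2 (7.86%), and CACGTG, the letters of an E-box, was in 0 of the 9 windows (7.15%). The members with and without a CCAAT match did not separate by Log2FC: Cct3 at -0.69, Cct7 at -0.57, Tcp1 at -0.26 and Cct6a at 0.13 held one, and Cct5 at -0.48, Cct8 at -0.26 and Cct2 at -0.09 did not.

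The head-to-head neighbours did not follow the subunits as a rule. They were taken for their overlap with a member in the annotation. Psph, which encodes phosphoserine phosphatase of serine synthesis and overlaps the start of Cct6a by 452 bases, measured 44.9, 97.6 and 52.0 CPM in shCtr and 103, 347 and 98.1 CPM in shOSGEP. Every shOSGEP library was above every shCtr library, with a Log2FC of 1.496 (SE 0.618, unadjusted p = 0.0407 and adjusted p = 1.00 in edgeR), beside 0.13 for Cct6a. Mrpl18, which encodes a protein of the mitochondrial ribosome and overlaps Tcp1 by 645 bases, had a Log2FC of -0.24 (SE 0.392), close to the -0.26 of Tcp1, but its log2 ratios of -0.61, 0.33 and -0.36 were less even than those of Tcp1. Pradc1, which overlaps Cct7 by 457 bases, had log2 ratios of -0.39, -1.11 and 0.12, beside -0.11, -1.24 and 0.19 for Cct7. Nothing states that the library kit kept strand information, and reads from the overlapping bases of a pair cannot be assigned to one gene. At its 3′ end Cct8 overlaps Usp16 by 192 bases, and Usp16 measured 4.72 to 63.0 CPM, far below Cct8.

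For Cct3, Cct4, Cct7 and Tcp1, the pseudogene that shared the most sequence took almost no counts. Of the 31-base words of the annotated transcripts, 13.1% of those of Cct3, 7.55% of Cct7, 3.50% of Cct4 and 2.36% of Tcp1 also occurred in another gene, and at most 0.104% did so for the other members. The pseudogenes that shared the most words, Cct3-ps1, Gm5380 and Tcp1-ps1, were at 0 in every library, and Gm15495, the partner of Cct4, had 1 count in shOSGEP replicate 2. Cct3-ps1 held 8.01% of the words of Cct3 and Gm5380 held 4.31% of those of Cct7. Words were shared with 3 genes by Cct3, with 5 by Cct7 and with 324 by Tcp1, and the counts of the remaining genes were not examined. How the quantification divided shared reads is not visible in the counts, so the values of Cct3 and Cct7 carry the most uncertainty of this kind.

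The genes that work with CCT were read from fixed lists, and in each of these lists 0 genes passed the adjusted p or the unadjusted threshold in edgeR. Among its partners, the prefoldin subunits, which hand unfolded actin and tubulin to CCT, had 3 of 6 above and 3 below 0 with a median Log2FC of 0.01, and Pfdn4 had the smallest p, at 0.80 (SE 0.558, unadjusted p = 0.186). This list had 5 of 6 above 0 with a median of 0.42 without shCtr replicate 2, and 2 of 6 with a median of -0.09 without both libraries of replicate 2. The phosducin-like co-chaperones, which bind CCT together with its clients, had 3 of 3 tested above 0 with a median of 0.51, with Pdcl3 at 0.64 and Txndc9 at 0.51. Their log2 ratios in replicate 2, 1.96 and 1.53, stood against -0.19 and -0.11 in replicate 1 and 0.08 and -0.10 in replicate 3. Without both libraries of replicate 2, all 3 were below 0 with a median of -0.10. The prefoldin-like proteins Pdrg1, Uri1 and Uxt had a median of 0.26, which was 0.62 without shCtr replicate 2 and 0.00092 without both libraries of replicate 2.

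The clients of CCT mostly had estimates below 0, and for actin and tubulin this depended on shCtr replicate 2. Of 13 actin and tubulin genes, 12 had a Log2FC below 0 and 1 above, with a median of -0.67, and without shCtr replicate 2 these counts were 3 below and 10 above with a median of 0.08. Without both libraries of replicate 2 they were 6 below and 7 above, with a median of 0.03. Tuba1b, an alpha-tubulin, measured 2309, 12553 and 3645 CPM in shCtr and 2063, 2969 and 4177 CPM in shOSGEP, a Log2FC of -1.01 (SE 0.734, unadjusted p = 0.206). Tubb2a, a beta-tubulin, was the 1 above 0, at 14.1, 48.6 and 22.1 CPM in shCtr and 23.2, 113 and 31.8 CPM in shOSGEP. Tubb2a was higher in shOSGEP in all 3 replicates, its Log2FC of 0.99 (SE 0.724) missed the threshold at an unadjusted p of 0.208, and with a replicate block it passed at 0.82 (unadjusted p = 0.0343, adjusted p = 0.741 in edgeR). Of 13 other clients, 10 were below 0, with a median of -0.48, and 9 were below 0 both without shCtr replicate 2, with a median of -0.07, and without both libraries of replicate 2, with a median of -0.10. Cdc20, a WD40 activator of the anaphase-promoting complex, had the largest estimate, at -1.36 (SE 0.619, unadjusted p = 0.0577), with 69.8, 246 and 104 CPM in shCtr and 49.8, 27.6 and 85.9 CPM in shOSGEP. Hdac3, a histone deacetylase, was at -0.79 and Fzr1, the other WD40 activator of that complex, at -0.89.

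The tubulin folding cofactors, which act on tubulin after CCT, had 4 of 6 below 0 with a median of -0.21, and 1 of 6 below 0 with a median of 0.56 without shCtr replicate 2, or 0.15 without both libraries of replicate 2. Tbca had the smallest p of the list, with a Log2FC of 0.74 (SE 0.499, unadjusted p = 0.173). Other ATP-driven chaperones had a median of -0.01 over 7 genes. Hspa9, the HSP70 of mitochondria, measured 427, 308 and 483 CPM in shCtr and 645, 752 and 530 CPM in shOSGEP, so its groups did not overlap, with a Log2FC of 0.66 (SE 0.411, unadjusted p = 0.144). This lay opposite to Tcp1, whose groups were apart in the other direction. Hspe1, the co-chaperonin of mitochondria, was at 0.48 and Hspa8, the constitutive cytosolic HSP70, at -0.47. Of the transcription factors known to act on chaperonin genes, Hsf1 was at -0.53, Myc at -0.21 and Hsf2 at 0.09, each with an adjusted p of 1.00.

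The genes most like the family in their course over the 6 libraries were Gnas (Pearson's r of log2 CPM with the mean of the 8 members 0.994), Edc3 (0.991), Psmd7 (0.991), Hnrnpc (0.988) and Socs3 (0.987), among 10970 genes with a mean of at least 50 counts. With only 6 libraries, r above 0.9 was reached by 1070 genes, or 9.75%, so the ranking is a description. The mean log2 CPM of the members was 8.87, 9.33 and 9.10 in shCtr and 8.72, 9.04 and 8.94 in shOSGEP, highest in shCtr replicate 2 and lowest in shOSGEP replicate 1.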

How the data were processed

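The deposited table gave estimated counts for each Ensembl gene as whole numbers, not normalized, in 1 column per library. The authors made 500 ng TruSeq polyA libraries read in pairs of 100 bases, and their processing notes name STAR 2.6.1d, Salmon 1.4.0 and GRCm38. The annotation release is not given in the sources used here. Counts were tested as deposited with edgeR 4.0.16 in R 4.3.3 (filterByExpr at a minimum count of 10, TMM, quasi-likelihood F-test, no block, Benjamini-Hochberg over 12669 genes), after a check on simulated data. A floor of 3 counts equals 0.116 to 0.147 CPM and covers counting error only. Log2 CPM used a prior count of 0.5.

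The members, lists and tests were chosen with earlier results of these data known. Named genes were the members, Osgep, up to 3 genes of smallest p per list, and the 5 most like the members' mean. Positions, lengths and GC came from GENCODE M21, promoters from RefSeq. Deviations of same-numbered libraries from group means correlated at 0.790, 0.541 and 0.184, all over 0.1, so replicate numbers were taken to pair libraries. The labels do not say what a number marks. Different numbers reached 0.462, for shCtr replicate 3 with shOSGEP replicate 1, above the 0.184 of shCtr replicate 3 with shOSGEP replicate 3. On this measure the pairing of replicate 3 is uncertain. By log2 CPM itself, shCtr replicate 3 correlated at 0.983 with shOSGEP replicate 3 and at 0.948 with shOSGEP replicate 1. The library names also end alike within each replicate number. The main edgeR fit and the permutation tests did not use the pairing. With a replicate block in edgeR, 0 CCT subunits were called. Their smallest unadjusted p was then 0.127, for Cct3 at a Log2FC of -0.63. Alternatives were DESeq2 1.42.0, limma-voom (limma 3.58.1), other scalings and filters, GC and length offsets, a replicate block and leaving out libraries.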

Additional observations from a re-analysis of the deposited data

How the results depend on the processing

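Over 347 alternative values, 296 kept their direction and side of the threshold or stayed close to the value reported, and 0 CCT subunits were called under any alternative. Estimates of single subunits changed sign, and the cause was not tested. Cct4 and Cct6a went to -0.067 and -0.15 with limma-voom sample weights, to -0.066 and -0.034 with GC and length offsets, to -0.067 and -0.031 with these offsets and the replicate block, and to -0.11 and -0.12 with limma-voom and the block, leaving 0 members above 0 in each of these 4. Cct2 went to 0.026 with upper-quartile scaling, which moved the median of all genes from -0.03 to 0.071. Without both libraries of replicate 2, Cct4 was -0.14, Cct6a -0.17 and Cct7 0.087, with 1 member above 0.

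Leaving out 1 library at a time, Log2FC ranged from -0.029 to 0.43 for Cct4, -0.71 to 0.046 for Cct5, -0.019 to 0.25 for Cct6a and -0.92 to 0.20 for Cct7. The members' median ranged from -0.33 to -0.036, and 1 to 2 members were above 0. Relative to the other 7 subunits, the difference ranged from -0.38 to 0.12 for Cct5, -0.59 to 0.29 for Cct7 and -0.16 to 0.087 for Cct8. In Log2FC, leaving out shCtr replicate 2 alone turned Cct4, Cct5, Cct6a and Cct7. Leaving out both libraries of replicate 2 turned Cct4, Cct6a and Cct7 but not Cct5, at -0.15. The Log2FC of Cct8 kept its sign but reached -0.92 with GC and length offsets.

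Osgep passed an adjusted p under 0.05 with DESeq2 (Log2FC -3.32) and with limma-voom and the block (-2.23). Of all genes, 14 passed with DESeq2, 3 with limma-voom and 1403 with limma-voom and the block, against 0 in edgeR. The unadjusted threshold with a Log2FC beyond 0.5 was passed by 256 genes in edgeR, 560 with limma-voom, 599 with a filter of 1 count in some library, 691 with the offsets, 864 with offsets and block, 1442 with limma-voom and block, and 67 to 453 without 1 library. In the pathway lists, 0 genes passed it in edgeR and 1 did so with DESeq2, the filter of 1 count, the replicate block, the offsets, offsets and block, and limma-voom and block, and 0 to 1 without 1 library. The gene was Cdc20 with DESeq2 and the low filter and Tubb2a with the block and the offsets. At an adjusted p under 0.05, 3 list genes passed with limma-voom and block, Cdc20, Hspa9 and Tubb2a. The replicate block changed no other call named here. With a common coefficient of variation between libraries near 0.566, 3 libraries a group limit what small differences can be seen.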

Other observations

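The chaperonin-like relatives of the subunits were scarce in these cells. Cct6b, the testis-enriched form of the zeta subunit, had 3, 8 and 0 counts in shCtr and 9, 12 and 6 counts in shOSGEP, and Cct8l1 was at 0 in all 6 libraries, which allows up to 0.147 CPM per library. Bbs10, Bbs12 and Mkks, chaperonin-like proteins that help assemble the BBSome of cilia, were tested with Log2FC of 0.41, 0.31 and 0.18, each with an adjusted p of 1.00 in edgeR. Mkks measured 15.9, 4.92 and 10.8 CPM in shCtr and 14.3, 11.1 and 10.6 CPM in shOSGEP, with its lowest value in shCtr replicate 2. Without shCtr replicate 2 the median of these 3 was -0.12, and without both libraries of replicate 2 it was 0.14, against 0.31 over all libraries.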
